A study of Mus musculus with 16 samples.

Results

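The loci of Chrm3, Chn2, Dse, Gm5127, Prkch and Fyb were examined peak by peak in an Omni-ATAC series of mouse spleen germinal center B cells. They hold 99 of the 82188 peaks in the deposited count table: 23 at Chrm3, 14 at Chn2, 13 at Dse, 8 at Gm5127, 23 at Prkch and 18 at Fyb. A peak belongs to a locus when that gene's span is the nearest of all protein-coding RefSeq spans to the middle of the peak and lies at most 50 kb away, and distances below are from the middle of a peak. The genes were picked from these same data as loci less accessible in heterozygous than in wild-type CB, most of them more accessible in CC than in CB. On GRCm38.p6 the spans are chr13:9875486-10361062 for Chrm3, chr6:54039932-54301812 for Chn2, chr10:34151389-34208282 for Dse, chrX:106583170-106710557 for Gm5127, chr12:73584796-73778185 for Prkch and chr15:6522796-6665608 for Fyb, and 87 of the 99 peak middles lie inside them. The gene table gives no exons, so peaks inside a span were not split into exonic and intronic ones. For these loci, calls in the contrasts behind that choice are counted as description, and only the genotype contrast within CC is read as a test. Some genes outside the loci are given p-values in other contrasts too.

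The 4 groups held 4 libraries each: Smarca4+/- CC (HET CC), Smarca4+/+ CC (WT CC), Smarca4+/- CB (HET CB) and Smarca4+/+ CB (WT CB). All came from spleens of C57BL/6 mice aged 8 to 10 weeks. The labels spell out neither abbreviation, and the usual reading, centroblast for CB and centrocyte for CC, is kept here. They state no sort gate, no driver of the Smarca4 deletion and no treatment, and nothing in them says that replicates are separate animals, so p-values measure the spread between libraries, which may be technical. Accessibility is given as CPM, the counts of a peak per unit of its library total after TMM scaling, either for a single peak or summed over the peaks of a locus.

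Smarca4 encodes BRG1, the ATPase of BAF complexes, which slide and evict nucleosomes and so open regulatory DNA to transcription factors. In germinal centers, centroblasts divide and mutate their antibody genes, whereas centrocytes are selected through antigen and T cell help. Chrm3 encodes the M3 muscarinic acetylcholine receptor, which signals through Gq proteins. Chn2 encodes beta2-chimaerin, a diacylglycerol-binding protein that switches off Rac GTPases, and Prkch encodes protein kinase C eta, a kinase activated by diacylglycerol. Dse encodes an epimerase that converts chondroitin sulfate into dermatan sulfate. Fyb encodes ADAP, an adaptor known from T cells, where it couples antigen receptor signals to integrins. Gm5127 is a predicted gene on the X chromosome with no role stated here.

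Peaks covered 3 of the listed promoter windows of these genes, and those windows are printed because they place the CC-open signal at start sites of contrasting base composition. Sequences are from RefSeq on GRCm38.p6, 250 bases before to 50 after a start site, with CpG dinucleotides in capitals. The table listed 5 of the 6 genes.
Chn2 promoter, chr6:54039682-54039981, plus strand: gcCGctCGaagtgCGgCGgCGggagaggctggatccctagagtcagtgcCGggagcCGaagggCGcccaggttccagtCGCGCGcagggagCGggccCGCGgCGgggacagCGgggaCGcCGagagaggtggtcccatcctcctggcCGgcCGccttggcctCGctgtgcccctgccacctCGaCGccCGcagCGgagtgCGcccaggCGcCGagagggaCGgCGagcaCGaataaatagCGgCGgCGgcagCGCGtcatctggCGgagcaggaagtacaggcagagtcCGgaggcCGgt
Dse promoter, chr10:34207186-34207485, minus strand: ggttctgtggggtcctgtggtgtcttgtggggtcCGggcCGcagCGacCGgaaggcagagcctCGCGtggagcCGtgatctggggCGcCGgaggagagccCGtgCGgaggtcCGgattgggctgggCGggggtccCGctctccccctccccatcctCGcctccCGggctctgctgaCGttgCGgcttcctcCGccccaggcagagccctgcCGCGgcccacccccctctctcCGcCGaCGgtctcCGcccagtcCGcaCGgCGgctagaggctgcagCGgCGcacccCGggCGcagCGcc
Fyb promoter, chr15:6579597-6579896, plus strand: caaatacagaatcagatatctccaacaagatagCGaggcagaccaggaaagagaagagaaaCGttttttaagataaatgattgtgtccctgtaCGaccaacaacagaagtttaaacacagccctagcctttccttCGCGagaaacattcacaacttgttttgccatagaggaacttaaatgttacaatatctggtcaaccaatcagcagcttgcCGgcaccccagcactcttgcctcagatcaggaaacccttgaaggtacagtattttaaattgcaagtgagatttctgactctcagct
The Chn2 window held 39 CpG and 73.3% G and C, and the Dse window 33 CpG and 75.3%, against medians of 7 CpG and 52.7% over all 32851 windows. The Fyb window was poorer in G and C than the median window, with 6 CpG and 42.0%. It surrounds a listed start site inside the span, at chr15:6579847, whereas the left end of the span is chr15:6522796. The words searched on both strands were ETS CCGGAAG, PU.1 GAGGAAG, AP-1 TGANTCA, RUNX TGTGGTT, SP GGGCGGG, KLF CACACCC, OCT ATGCAAA, FOXO TGTTTAC, E-box CAGCTG and CRE TGACGTC, of which ETS and PU.1 share GGAAG. Of these 10 words, the Dse window held a match to the ETS word CCGGAAG at 203 bp before the start site, to the SP word GGGCGGG at 127 bp before it and to the PU.1 word GAGGAAG at 66 bp before it. These 3 words occur in 8.86%, 25.6% and 13.6% of all windows, and the other 7 in 3.21% to 16.3%. The Chn2 and Fyb windows printed here matched none of the 10 words. No peak overlapped the listed windows of Chrm3 and Gm5127, which each held 2 PU.1 matches, nor those of the 3 further Chn2 start sites.

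Depth differed strongly between the cell labels, with 5310327 to 7474760 counts in HET CC, 3494356 to 3750936 in WT CC, 38716281 to 51011923 in HET CB and 31696941 to 38798802 in WT CB. Single peaks of these loci held 4 to 156 counts per library in HET CC and 2 to 134 in WT CC, against 0 to 581 in HET CB and 3 to 550 in WT CB, with the lower totals in CC. Smarca4 itself, with 139.8 to 164.7 CPM in HET CC, 152.8 to 184.7 in WT CC, 174.9 to 180.2 in HET CB and 183.3 to 196.2 in WT CB, does not check the genotype, since the labels do not say which part is deleted. Libraries also stood apart in the accessibility of Firre, an X-linked locus of 20 peaks. It was under 100 CPM in HET CC 2 and 4, HET CB 2 and 4 and WT CB 2 and 4, and over 100 CPM in the other libraries, including all 4 of WT CC. This split was noticed in the data, and its results are given with and without those 6 libraries.

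Marker loci differed between the groups as well. All 9 B cell marker loci had peaks, summing to 1564.5 to 1666.3 CPM in HET CC, 1579.8 to 1776.6 in WT CC, 1912.3 to 1927.5 in HET CB and 1986.0 to 2118.9 in WT CB. T cell marker loci, of which 13 of 14 had peaks and Cd28 had none, summed to 374.4 to 491.0 CPM in HET CC, 473.3 to 552.5 in WT CC, 186.5 to 195.5 in HET CB and 215.7 to 217.5 in WT CB. By the edgeR quasi-likelihood test across all genes, 4 of those 13 were called lower in HET CC than in WT CC, against 3.43% of all genes. All 9 germinal center marker loci had peaks and summed to 1031.7 to 1242.3 CPM in HET CC, 880.2 to 1009.0 in WT CC, 1552.3 to 1587.4 in HET CB and 1571.7 to 1628.5 in WT CB. Of these 9, 5 were called higher in HET CC than in WT CC, against 3.21% of all genes. All 6 naive follicular marker loci summed to 928.3 to 1103.0 CPM in HET CC and 1189.5 to 1360.0 in WT CC, with 5 called lower in HET CC. Without the 6 libraries of low Firre, 2 of all genes were called in CC, both higher in HET. None of these lower marker calls thus held, and at most 2 of the higher ones. Less access per cell and fewer cells of a type cannot be told apart in bulk libraries, and the part of these markers in the results below was not tested.

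Summed over its peaks, 5 of the 6 loci had several times the CPM in CC that they had in CB. Chrm3 stood at 169, 129, 165 and 118 CPM in HET CC libraries 1 to 4 and at 183, 207, 197 and 196 in WT CC, against 39.1, 36.6, 38.9 and 34.1 in HET CB and 52.7, 49.1, 54.0 and 49.1 in WT CB. All 8 CC libraries thus lay above all 8 CB libraries, and within each cell label all HET libraries lay below all WT libraries. Dse stood at 126, 100, 135 and 91.3 CPM in HET CC, 148, 163, 162 and 159 in WT CC, 18.3, 17.3, 19.0 and 16.2 in HET CB and 19.9, 24.3, 22.2 and 26.1 in WT CB. It showed the same order, with the highest ratio of CC to CB of the 6 loci. HET CC libraries 1 and 3 were above libraries 2 and 4 at both.

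Prkch stood at 138, 121, 166 and 107 CPM in HET CC, 150, 152, 176 and 150 in WT CC, 30.0, 25.8, 28.5 and 25.3 in HET CB and 31.4, 38.0, 32.9 and 40.0 in WT CB. The genotypes did not overlap in CB, but they did in CC, where HET library 3 exceeded 3 WT libraries. Chn2 stood at 102, 76.5, 110 and 84.3 CPM in HET CC, 112, 99.8, 97.2 and 105 in WT CC, 29.1, 25.6, 28.0 and 26.9 in HET CB and 36.8, 36.9, 35.2 and 35.2 in WT CB, with the same pattern. Fyb stood at 124, 100, 107 and 79.8 CPM in HET CC, 114, 131, 116 and 109 in WT CC, 27.0, 21.0, 24.0 and 22.6 in HET CB and 27.3, 31.4, 24.2 and 30.1 in WT CB. Its genotypes overlapped in both cell labels, although it was picked as lower in HET CB.

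Gm5127 went against the label of the set. It stood at 40.3, 39.7, 45.1 and 52.1 CPM in HET CC, 41.6, 49.2, 48.1 and 50.8 in WT CC, 44.7, 40.6, 35.9 and 41.0 in HET CB and 50.6, 60.1, 52.6 and 57.2 in WT CB. Its CC and CB libraries overlapped in both genotypes, so this locus as a whole was not more open in CC, while in CB every HET library lay below every WT library. Over the 16 libraries the Pearson correlation of log2 CPM with the mean of the 6 loci was 0.029 for Gm5127 and 0.993 to 0.997 for the other 5, a description of points that share libraries and that fall into a CC and a CB cluster.

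**Figure D1:**
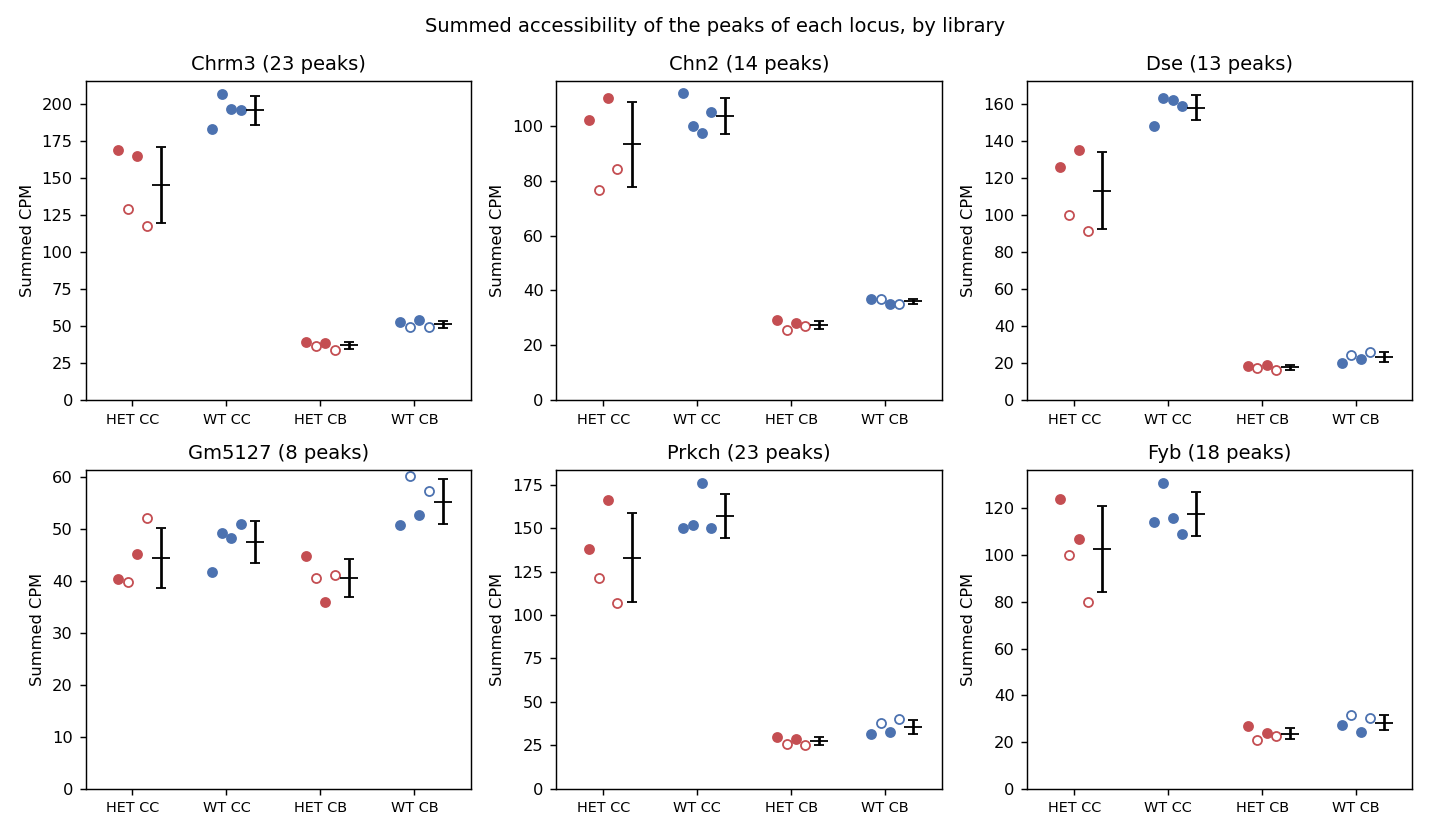
Summed CPM of the peaks of each locus in every library, with HET in red and WT in blue, open circles for libraries with Firre under 100 CPM, and black bars for the mean ± SD of 4 libraries. All loci but Gm5127 are higher in CC than in CB, and Gm5127 spans 35.9 to 60.1 CPM over all 16 libraries.

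The step between CB and CC was a property of most peaks rather than of 1 site. In HET, 92 of the 99 peaks were called higher in CC than in CB and 2 lower, and in WT 90 were called higher and 2 lower. Across all peaks 30.8% were called higher and 28.1% lower in CC in HET, and 30.2% higher and 27.7% lower in WT, but the genes were chosen partly for this contrast and nothing is read from the difference. The median log2 fold change of the 99 peaks, CC over CB, was 2.60 in HET and 2.48 in WT, against 0.00 in HET and -0.01 in WT over all peaks. Summed per locus, the fitted fold of CC over CB in HET was 6.35 at Dse, 4.85 at Prkch, 4.35 at Fyb, 3.89 at Chrm3, 3.38 at Chn2 and 1.09 at Gm5127. In WT it was 6.84 at Dse, 4.42 at Prkch, 4.16 at Fyb, 3.82 at Chrm3, 2.88 at Chn2 and 0.86 at Gm5127. In HET the SE of these log2 fold changes was between 0.077 and 0.097, in WT between 0.079 and 0.103. Marker loci differed between CC and CB as well. By edgeR, 12 of 13 T cell loci were called higher in CC in each genotype (median log2 2.07 in HET and 1.86 in WT). So were 6 of 8 NK cell loci in HET and 5 in WT. Of 9 germinal center loci, 7 were called lower in CC in HET and 8 in WT. Myeloid loci were called higher in 4 of 6 in HET and in 5 in WT, with 1 lower in WT. Naive follicular loci were called higher in 5 of 6 in HET and in 4 in WT, with 1 lower in HET. Stromal and endothelial loci were called higher in 3 of 5 in each genotype. Of all 15055 genes, 4682 were called higher and 4775 lower in CC in HET, and 4756 and 4775 in WT. The part of marker loci in the step was not tested.

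Peaks within a locus were not uniform. Dse was the most even and the most densely covered, with 17.6 peaks per 100 kb of span and all 13 peaks at log2 1.74 or more in WT. At Prkch and Fyb a few peaks hardly differed between CC and CB although their neighbours differed several-fold. Fyb peak_65682 (chr15:6625697-6626197, inside the span) had 6.88, 6.20, 5.85 and 4.66 CPM in HET CC, 5.56, 5.59, 5.92 and 5.47 in WT CC, 4.81, 4.53, 4.44 and 5.25 in HET CB and 4.62, 6.12, 4.93 and 4.74 in WT CB. Its log2 fold change, CC over CB, was 0.31 in HET and 0.15 in WT. Prkch peak_56699 (chr12:73722984-73723484, inside the span) averaged 5.09 ± 2.69 CPM in HET CC, 7.17 ± 1.73 in WT CC, 4.42 ± 0.15 in HET CB and 5.58 ± 0.568 in WT CB (SD, n = 4 each). These sites were already open in CB.

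The widest steps in WT were at peaks that were nearly closed in CB. Chrm3 peak_58818 (chr13:9873342-9873842) has its middle 1894 bp outside the span and had 8.26, 9.89, 9.82 and 8.38 CPM in HET CC, 12.5, 6.77, 11.8 and 8.48 in WT CC, 0.794, 0.8, 1.13 and 0.583 in HET CB and 0.687, 1.47, 0.432 and 0.471 in WT CB. Its log2 fold change was 3.46 in HET and 3.72 in WT and the WT value was the highest of the 99 peaks in WT. Fyb peak_65669 (chr15:6555417-6555917) had log2 3.43 in HET and 3.70 in WT, and Dse peak_45586 (chr10:34197205-34197705) 2.67 in HET and 3.45 in WT. Prkch peak_56680 (chr12:73598144-73598644) had log2 3.29 in HET and 3.28 in WT, and Chn2 peak_27829 (chr6:54216412-54216912) 2.15 in HET and 3.05 in WT. The Chn2 value rests on 2 to 19 counts per WT CC library.

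Gm5127 held the exceptions in the other direction. Its most accessible peak, peak_81393 (chrX:106658143-106658643), had 5.68, 8.58, 6.42 and 8.38 CPM in HET CC, 4.17, 9.13, 5.92 and 5.20 in WT CC, 10.3, 10.0, 8.21 and 11.3 in HET CB and 13.0, 14.1, 14.0 and 15 in WT CB. Every WT CB library exceeded every WT CC library there. The log2 fold change, CC over CB, was -0.44 in HET and -1.21 in WT, and the adjacent peak_81394 had -0.55 in HET and -1.14 in WT. These 2 peaks are the 2 of the 99 that were called lower in CC in each genotype.

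**Figure D2:**
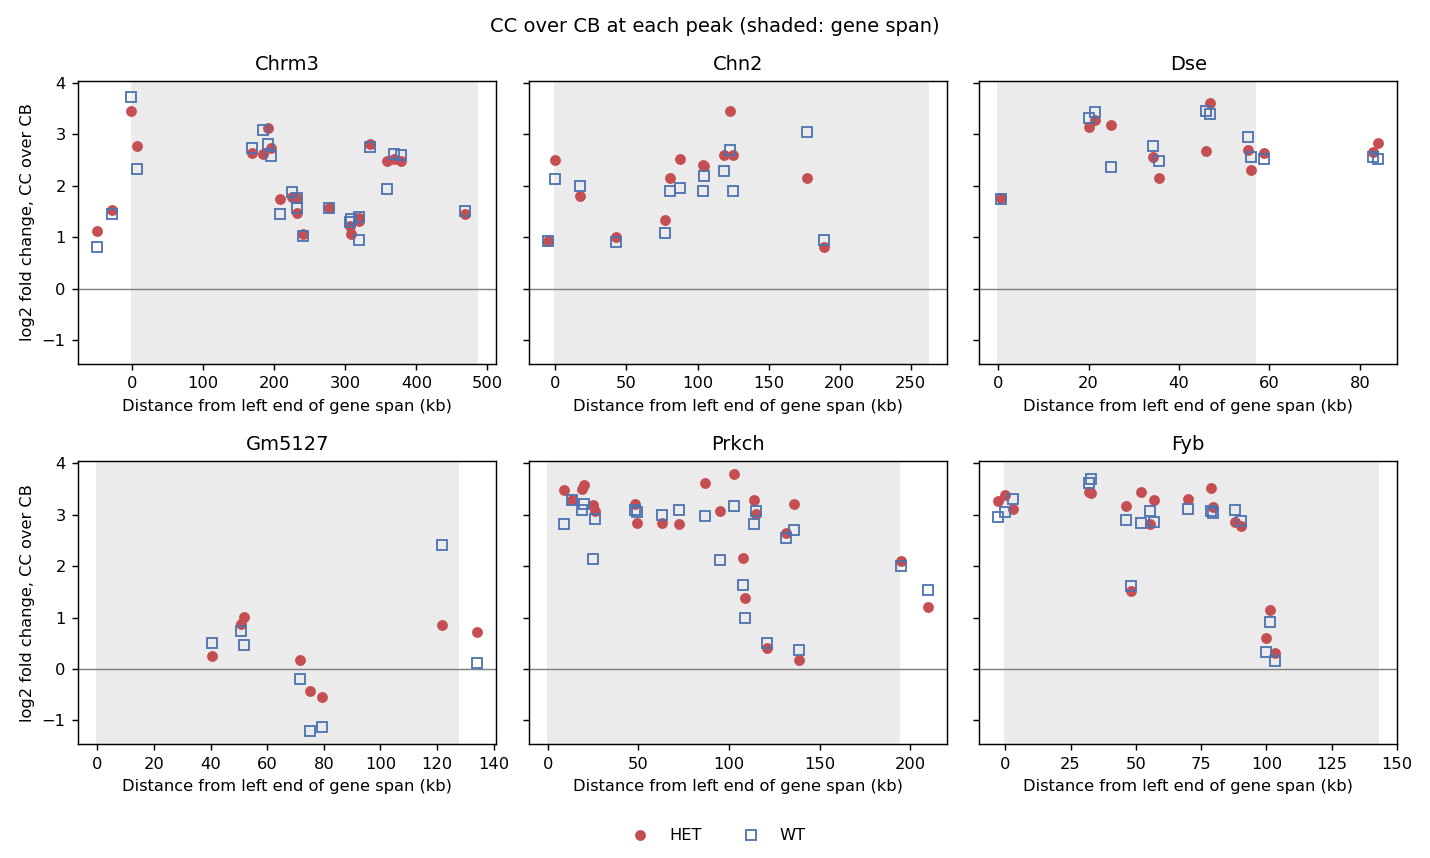
log2 fold change of CC over CB at each peak against its distance in kb from the left end of the gene span, with HET as red circles and WT as open blue squares and the span shaded. Most points lie above 1, a few Prkch and Fyb peaks lie near 0, and 2 Gm5127 peaks lie below 0 in both genotypes.

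Start-site peaks took part in the step without having the widest fold. The Dse promoter peak, peak_45589 (chr10:34206968-34207468), overlaps 283 bases of the printed Dse window and had the highest mean of its locus, with 25.5, 20.6, 24.7 and 22.0 CPM in HET CC, 25.6, 39.5, 29.0 and 32.0 in WT CC, 4.45, 4.66, 5.16 and 4.24 in HET CB and 5.68, 5.05, 4.70 and 5.88 in WT CB. The CpG-rich Chn2 promoter peak, peak_27818 (chr6:54039669-54040169), was lower, at 5.16, 5.67, 8.50 and 5.90 CPM in HET CC, 7.23, 7.07, 5.92 and 6.29 in WT CC, 1.56, 0.8, 1.04 and 1.03 in HET CB and 1.29, 1.22, 1.80 and 1.69 in WT CB. The peak at the CpG-poor Fyb window, peak_65674 (chr15:6579527-6580027), lies at a listed start site inside the span and not at a gene end. It averaged 6.63 ± 2.17 CPM in HET CC, 6.45 ± 2.05 in WT CC, 0.673 ± 0.201 in HET CB and 0.885 ± 0.143 in WT CB (SD, n = 4 each). The 3 promoter peaks had log2 fold changes, CC over CB, of 2.32 (Dse), 2.51 (Chn2) and 3.28 (Fyb) in HET and of 2.56, 2.13 and 2.86 in WT. All 3 lie within the range of the other peaks of their loci.

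In CB, where the genes were picked, the lower HET level was spread over the peaks. Of the 99 peaks, 92 had a log2 fold change of HET over WT below 0, with a median of -0.43 against -0.01 over all peaks, and 6 were called lower against 0.127% of all peaks. In 26 of the 99 all 4 HET CB libraries lay below all 4 WT CB libraries, against 4.95% of all peaks. Leaving out 1 CB library gave 1 to 3 called peaks in the loci, a replicate block 2, and omission of the 6 low-Firre libraries 1. DESeq2 gave 9 and a fit of the 2 CB groups alone 12. Summed per locus, the log2 fold change in CB was -0.46 (SE 0.072) at Chrm3, -0.44 (SE 0.068) at Gm5127, -0.39 (SE 0.07) at Chn2, -0.38 (SE 0.088) at Dse, -0.38 (SE 0.088) at Prkch and -0.26 (SE 0.091) at Fyb. All but Fyb were called lower, against 0.525% of all genes, and in the same 5 every HET CB library lay below every WT CB library, against 5.93% of all genes. The choice of members fixed these counts of peaks and loci, so nothing is read from them.

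Chrm3 peak_58823 (chr13:10071031-10071531, inside the span) was the tallest Chrm3 peak and separated the genotypes widely, with 3.17, 3.26, 3.66 and 3.31 CPM in HET CB and 5.76, 5.24, 5.71 and 6.13 in WT CB. Chn2 peak_27821 (chr6:54117165-54117665), the tallest of its locus, had 6.76, 7.90, 7.74 and 8.05 CPM in HET CB and 11.7, 10.6, 9.30 and 10.3 in WT CB. Gm5127 peak_81391 (chrX:106634729-106635229) had 5.50, 5.60, 4.35 and 4.90 CPM in HET CB and 7.24, 7.09, 7.29 and 7.73 in WT CB. At all 3 the HET and WT libraries were apart in CB. Peak_81391 had the lowest log2 fold change in CB of the Gm5127 peaks, -0.53. At the other 5 loci the lowest values were -1.10 at Prkch peak_56694 (chr12:73698303-73698803), -1.05 at Chn2 peak_27827 (chr6:54162713-54163213), -0.97 at Chrm3 peak_58829 (chr13:10152437-10152937), -0.94 at Dse peak_45583 (chr10:34176074-34176574) and -0.77 at Fyb peak_65666 (chr15:6522564-6523064). These were weaker peaks, averaging 0.401 to 1.09 CPM in HET CB and 0.766 to 2.25 CPM in WT CB.

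The CB difference varied with the Firre level of the libraries at some loci. Among CB libraries with Firre over 100 CPM (replicates 1 and 3 of each genotype), the log2 ratio of HET to WT means was -0.45 at Chrm3, -0.36 at Gm5127, -0.33 at Chn2, -0.17 at Dse, -0.14 at Prkch and -0.01 at Fyb. Among those under 100 CPM (replicates 2 and 4 of each) it was -0.47 at Chrm3, -0.52 at Gm5127, -0.46 at Chn2, -0.59 at Dse, -0.61 at Prkch and -0.50 at Fyb. Chrm3 was thus as low in HET within either set of libraries, and at Fyb the means of replicates 1 and 3 were 25.5 CPM in HET and 25.8 CPM in WT. HET replicates 2 and 4 were the lower and WT replicates 2 and 4 the higher ones at Dse, Prkch and Fyb. Without the low-Firre libraries the CB calls at Dse (log2 -0.17) and Prkch (-0.14) ended, and those at Chrm3, Chn2 and Gm5127 stayed. The remaining CB libraries are among those that picked the genes, so nothing is read from which calls stayed.

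The genotype contrast in CC was not used to pick the genes. Their CC levels were, through the step from CB to CC, so the test is not fully independent of the choice. In CC, 2 of the 6 loci were called less accessible in HET: Dse and Chrm3. Dse averaged 113.0 ± 20.5 CPM in HET CC and 157.9 ± 6.91 in WT CC (SD, n = 4 each), a log2 fold change of -0.49 (SE 0.093, adjusted p = 0.00219 by edgeR). Chrm3 averaged 145.3 ± 25.6 CPM in HET CC and 195.7 ± 9.80 in WT CC (log2 -0.44, SE 0.081, adjusted p = 0.00212 by edgeR). These p-values come from quasi-likelihood tests fitted on all genes, adjusted after Benjamini and Hochberg, and over all genes 3.43% were called lower in CC. At both loci 4 of 4 HET CC libraries lay below every WT CC library, which held for 3.83% of all genes.

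The other 4 loci did not pass in CC. Prkch averaged 133.3 ± 25.5 CPM in HET CC and 157.0 ± 12.6 in WT CC (log2 -0.24, SE 0.098, edgeR adjusted p = 0.133). Fyb averaged 102.9 ± 18.4 CPM in HET CC and 117.4 ± 9.19 in WT CC (log2 -0.19, SE 0.104, edgeR adjusted p = 0.273). Chn2 averaged 93.2 ± 15.5 CPM in HET CC and 103.5 ± 6.59 in WT CC (log2 -0.16, SE 0.085, edgeR adjusted p = 0.254). Gm5127 averaged 44.3 ± 5.72 CPM in HET CC and 47.4 ± 4.04 in WT CC (log2 -0.10, SE 0.105, edgeR adjusted p = 0.624). All 6 values are below 0, but the difference between the effects in CC and CB was not tested, because it reuses the CB libraries that picked the genes. Without HET CC replicate 3, Prkch (log2 -0.36, adjusted p = 0.00672) and Chn2 (-0.25, adjusted p = 0.0495) passed as well in edgeR.

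Both calls in CC ended without the 6 libraries of low Firre, which leaves HET CC replicates 1 and 3 against all 4 of WT CC. Then Chrm3 had a log2 fold change of -0.22 (edgeR adjusted p = 0.173) and Dse -0.27 (adjusted p = 0.156). Of all genes 2 were called, both higher in HET. No lower call in CC given here for any gene, above or below, thus holds without these libraries, and at most 2 of the higher calls do. With the Firre level as a term in the fit of all 16 libraries, both stayed called, Chrm3 at -0.33 (edgeR adjusted p = 0.00481) and Dse at -0.44 (adjusted p = 0.00724). That term is shared by the 4 groups, although the direction differed between them. Dse averaged 95.7 CPM in low-Firre and 130 in other HET CC libraries, but 25.2 and 21 in WT CB. The term therefore cannot adjust the CC contrast for a Firre difference particular to CC. No WT CC library had a low Firre level, so no comparison of genotypes in CC among low-Firre libraries could be made. What the Firre split stands for was not tested.

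**Figure D3:**
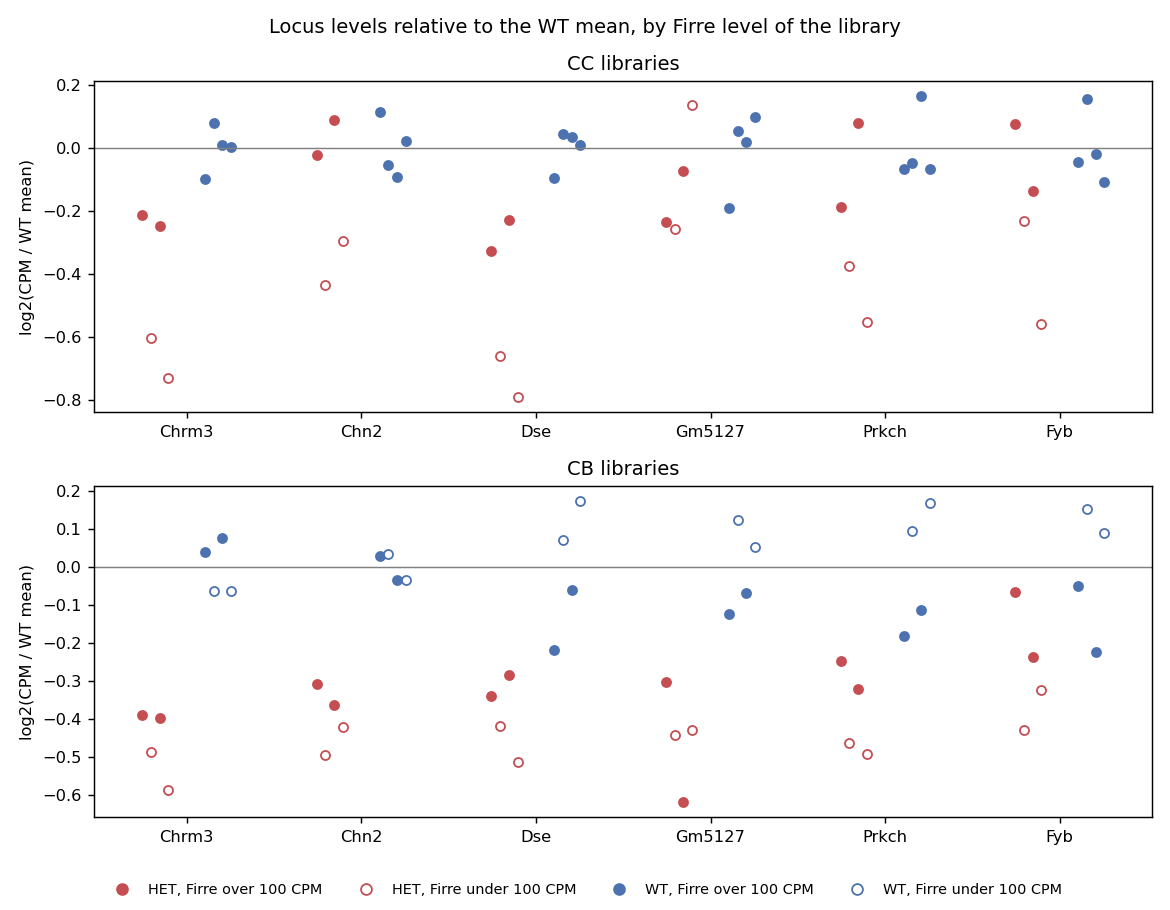
log2 of the summed CPM of each locus over the mean of the 4 WT libraries of the same cell label, for every library, with HET in red left of WT in blue and open circles for libraries with Firre under 100 CPM. In CC the open HET circles lie below the filled ones at all loci but Gm5127, and in CB HET lies below WT at Chrm3, Chn2 and Gm5127 whatever the Firre level.

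Peak by peak in CC, 5 of the 99 peaks passed the test, all lower in HET, against 0.979% of all peaks called lower. They lie at Chrm3 (3 peaks), Dse and Gm5127, and 2 of the Chrm3 peaks, peak_58827 and peak_58831, are named because they passed. In 7 peaks all 4 HET CC libraries lay below all 4 WT CC libraries, against 2.91% of all peaks. The median log2 fold change of the 99 peaks was -0.31, against 0.00 over all peaks, and 76 of them were below 0. In 72 peaks the log2 fold change was below 0 in both CC and CB. In CB alone, where the genes were picked for lower HET values, 92 of the 99 were below 0. The share of all peaks below 0 in both was not counted, so nothing is read from the 72.

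Chrm3 peak_58823, which separated the genotypes in CB, did so in CC too, with 25.3, 19.8, 27.8 and 17.7 CPM in HET CC and 35.6, 39.2, 31 and 32.0 in WT CC. The highest HET value was below the lowest WT value (log2 -0.62, SE 0.133, edgeR adjusted p = 0.00896). Chrm3 peak_58831 (chr13:10182684-10183184) had 16.9, 13.7, 14.3 and 13.2 CPM in HET CC and 22.2, 20.9, 19.7 and 24.4 in WT CC, again with no overlap (log2 -0.59, SE 0.149, edgeR adjusted p = 0.0242). Chrm3 peak_58827 (chr13:10107286-10107786) had 9.46, 8.58, 13.0 and 6.67 CPM in HET CC and 9.45, 16.2, 18.6 and 15.9 in WT CC, where WT library 1 lay among the HET values (log2 -0.69, SE 0.197, edgeR adjusted p = 0.0468). All 3 lie inside the gene span and far from the listed start site, at distances of 289522, 177869 and 253267 bp.

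Gm5127 peak_81395 (chrX:106704510-106705010, 5797 bp inside the span from its right end) had the widest genotype difference of the 99 peaks in CC. It stood at 1.38, 1.98, 1.70 and 0.621 CPM in HET CC and 5.0, 5.3, 4.79 and 6.02 in WT CC, from 4 to 15 counts per library in HET CC and 17 to 22 in WT CC (log2 -1.88, SE 0.373, edgeR adjusted p = 0.00475). In CB the genotypes overlapped, with 0.947, 0.632, 0.728 and 0.836 CPM in HET CB and 0.687, 1.35, 1.09 and 0.859 in WT CB. All 4 WT CC libraries lay above all 4 WT CB libraries there, as at 1 other peak of the locus. It passed the edgeR test without any 1 of the 8 CC libraries (adjusted p from 0.00361 to 0.0348), and without the 6 libraries of low Firre its log2 fold change was -1.78 (edgeR adjusted p = 0.251).

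Dse peak_45586 had 7.57, 4.75, 6.04 and 2.79 CPM in HET CC and 10.3, 8.54, 9.58 and 11.8 in WT CC, with no overlap (log2 -0.94, SE 0.267, edgeR adjusted p = 0.0454). The Dse promoter peak_45589, whose 4 HET CC libraries also lay below every WT CC library, had log2 -0.45 (SE 0.134, edgeR adjusted p = 0.0592). The peak with the smallest p at the other loci was Prkch peak_56688 (log2 -0.94, SE 0.319, edgeR adjusted p = 0.0984), Fyb peak_65668 (-0.53, SE 0.259, adjusted p = 0.281) and Chn2 peak_27825 (-0.53, SE 0.297, adjusted p = 0.358). No peak of these 3 genes passed in CC. Of the 99 peaks 0 were called higher in HET CC, by edgeR (0 at an unadjusted p below 0.05) and by DESeq2, against 1.08% of all peaks by edgeR.

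Without the 6 libraries of low Firre, Chrm3 peak_58823 had log2 -0.38 (edgeR adjusted p = 0.436), peak_58831 -0.48 (0.416), peak_58827 -0.42 (0.59) and Dse peak_45586 -0.56 (0.591). Single libraries decided several of these calls too. Chrm3 peak_58823 missed the threshold without HET CC replicate 2 (log2 -0.56, edgeR adjusted p = 0.0537) and without replicate 4 (-0.52, adjusted p = 0.0585). Among the fits that left out 1 CC library, Dse peak_45586 kept its call only without HET CC replicate 1 or 3, and had edgeR adjusted p = 0.13 and 0.178 without HET CC replicates 2 and 4 and 0.079, 0.0634, 0.0634 and 0.109 without WT CC replicates 1 to 4. The Dse promoter peak_45589 passed without HET CC replicate 1 (edgeR adjusted p = 0.0396), HET CC replicate 3 (0.0454) or WT CC replicate 1 (0.0375), and Prkch peak_56699 without HET CC replicate 3 (log2 -0.89, adjusted p = 0.0384). Chrm3 peak_58827 and peak_58831 were called in 3 and 4 of the 8 fits that left out 1 library, with edgeR adjusted p up to 0.176 and 0.0876. Library totals in place of TMM scaling turned the split of all CC calls to 1168 higher and 490 lower, against 889 and 805 with TMM, and shifted the median of all peaks to 0.03.

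**Figure D4:**
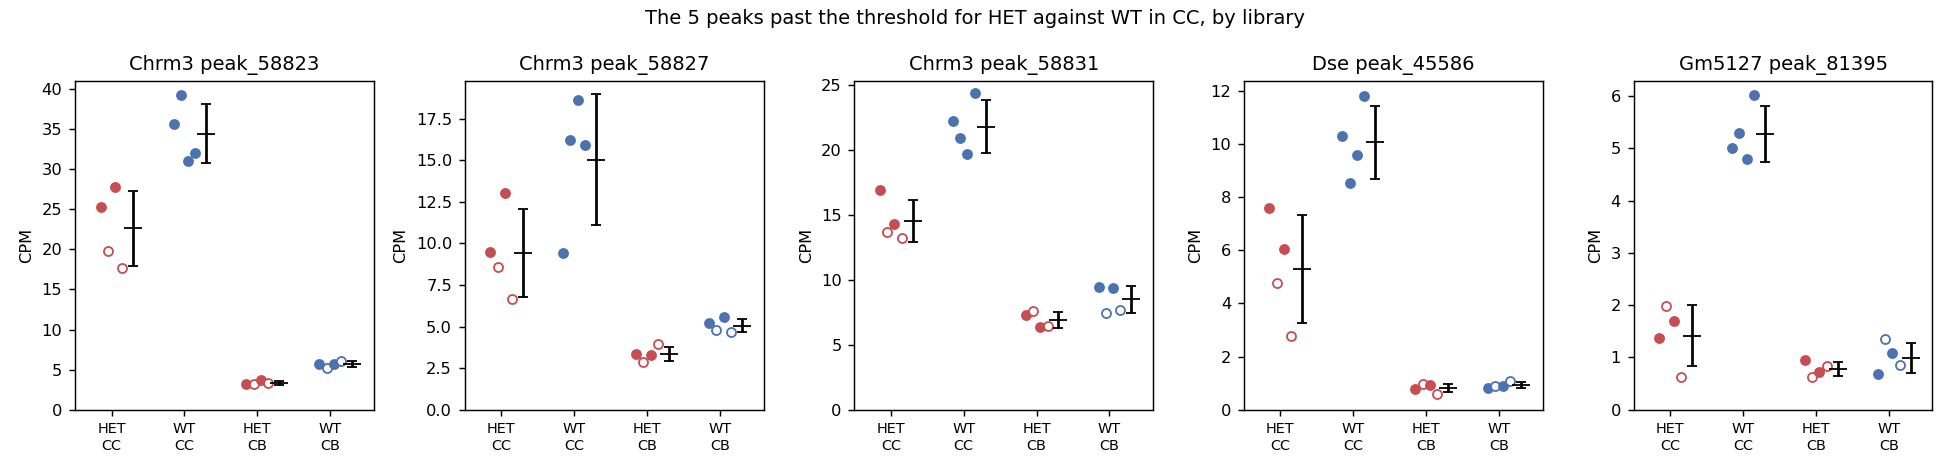
CPM in every library of the 5 peaks called in HET CC against WT CC, with HET in red, WT in blue, open circles for libraries with Firre under 100 CPM, and black bars for the mean ± SD of 4 libraries. HET CC lies below WT CC without overlap in 4 of the 5 panels, and at Chrm3 peak_58827 the groups overlap in CC.

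Along the gene bodies, Chrm3 and Dse were below 0 at 20 of 23 and 12 of 13 peaks in CC, Chn2 at 12 of 14, Prkch at 16 of 23, Fyb at 12 of 18 and Gm5127 at 4 of 8. The 3 peaks of Chrm3 outside its span had CC log2 fold changes of 0.25, -0.02 and -0.13. The farthest of them, peak_58816, 49067 bp from the span, stood at 4.13, 2.90, 3.21 and 4.50 CPM in HET CC and 3.06, 2.65, 3.38 and 3.28 in WT CC. The next peak beyond the 50 kb limit lay 178074 bp from Chrm3, and that of Gm5127 56434 bp from its span. Prkch peak_56700 (chr12:73779165-73779665), the nearest to a Prkch gene end, averaged 9.51 ± 2.75 CPM in HET CC, 11.1 ± 1.62 in WT CC, 2.19 ± 0.348 in HET CB and 2.76 ± 0.598 in WT CB (SD, n = 4 each). Fyb peak_65666, at its left gene end, was apart in both cell labels, with 5.68, 3.96, 5.29 and 5.59 CPM in HET CC, 6.11, 6.48, 7.89 and 7.39 in WT CC, 0.461, 0.463, 0.552 and 0.467 in HET CB and 0.793, 1.04, 0.686 and 0.832 in WT CB. It and Chrm3 peak_58823 were the 2 peaks of the 99 with every HET library below every WT library in both CC and CB. The share of all peaks with HET below WT in this way was 2.91% in CC and 4.95% in CB, each taken alone. The share apart in both was not counted, and the genes were picked for lower HET values in CB. Nothing is read from this count of 2 peaks. The Fyb peak did not pass the test in CC (log2 -0.45, SE 0.279, edgeR adjusted p = 0.417).

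Other peaks that stood out in their loci did not pass the genotype test in CC. The tallest Prkch peak, peak_56679 (chr12:73593280-73593780), had 14.4, 9.89, 11.1 and 9.93 CPM in HET CC, 12.0, 15, 12.4 and 14.2 in WT CC, 1.25, 0.716, 1.35 and 0.739 in HET CB and 1.48, 2.32, 1.93 and 1.91 in WT CB. Its genotypes were apart in CB and overlapped in CC (log2 -0.25, SE 0.21, edgeR adjusted p = 0.587). The tallest Fyb peak, peak_65681 (chr15:6623790-6624290), overlapped in both, with 10.5 ± 3.04 CPM in HET CC, 9.41 ± 2.92 in WT CC, 4.71 ± 0.488 in HET CB and 4.99 ± 0.589 in WT CB (SD, n = 4 each). Chn2 peak_27820 (chr6:54082452-54082952), the Chn2 peak with the smallest step between CB and CC in WT, averaged 12.2 ± 2.69 CPM in HET CC, 12.1 ± 1.66 in WT CC, 6.07 ± 0.486 in HET CB and 6.44 ± 0.335 in WT CB. At Dse the smallest step was at peak_45580 (chr10:34151756-34152256), 617 bp inside its left gene end, with 2.44 ± 0.666 CPM in HET CC, 3.49 ± 2.07 in WT CC, 0.704 ± 0.0776 in HET CB and 1.04 ± 0.222 in WT CB.

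**Figure D5:**
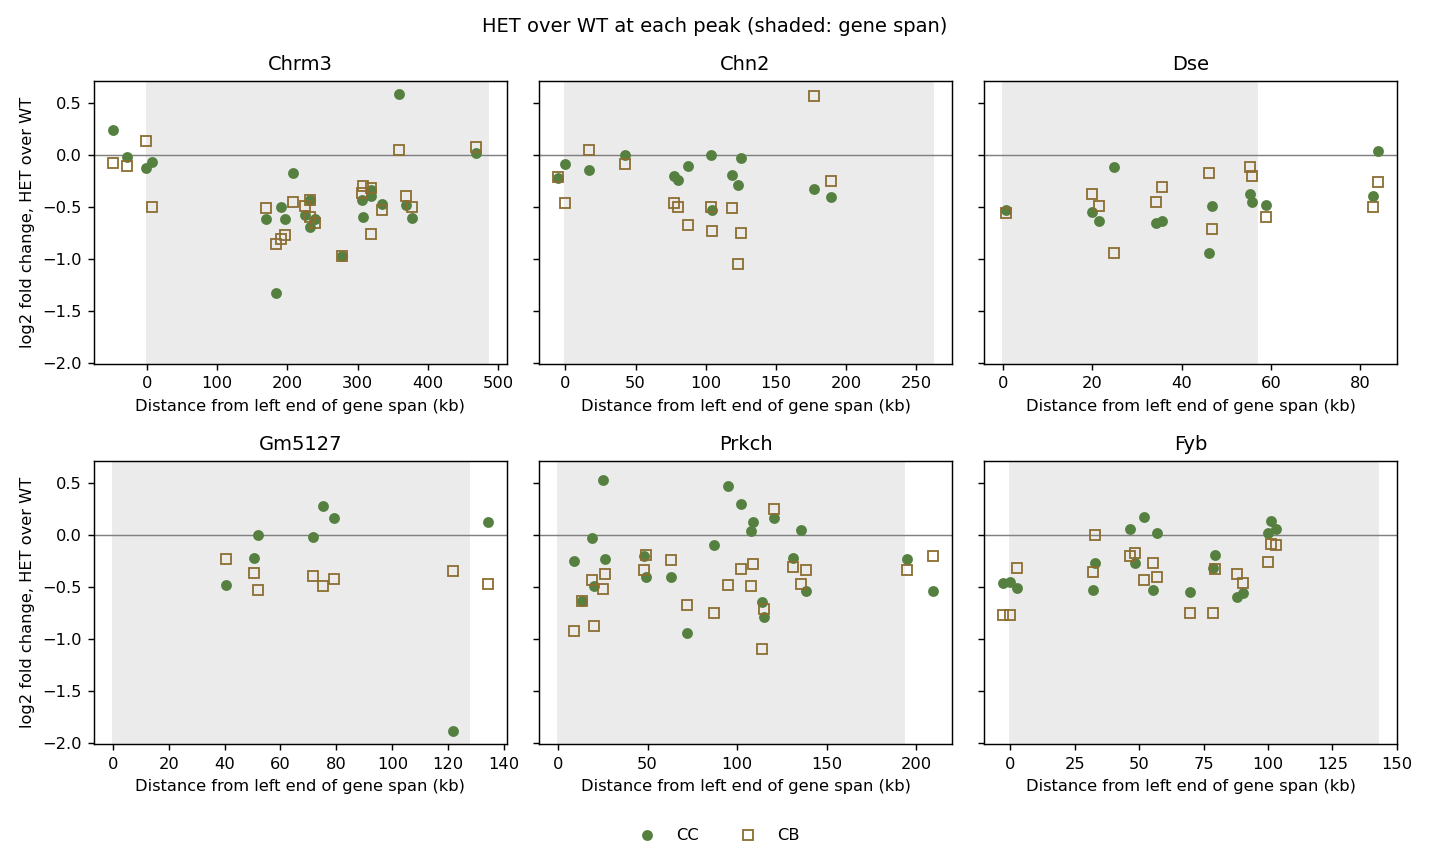
log2 fold change of HET over WT at each peak in CC (green circles) and CB (open brown squares) against its distance in kb from the left end of the gene span, shaded. Most points lie below 0 in both, the Gm5127 peak at -1.88 in CC stands apart from its locus, and the Chrm3 peaks outside the span lie near 0.

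The genes with peaks that come next along the chromosome, some of them far away, were called by genotype in 3 cases. Zmynd11, a chromatin reader gene 109.5 kb from the Chrm3 span, was lower in HET CC (log2 -0.38, SE 0.087, edgeR adjusted p = 0.00862) and had -0.05 in CB (adjusted p = 0.875). Ryr2, which encodes a calcium release channel and lies 1192 kb from the Chrm3 span, was lower in HET CC (-0.31, SE 0.084, adjusted p = 0.0237) and in HET CB (-0.26, SE 0.063, adjusted p = 0.0385). Cysltr1, a leukotriene receptor gene whose span overlaps that of Gm5127, was lower in HET CB (-0.51, SE 0.117, edgeR adjusted p = 0.0264) and had -0.15 in CC (adjusted p = 0.72). The remaining 9 neighbours were not called by genotype in either cell label. They were Cpvl and Prr15 for Chn2, Calhm6 and Tspyl1 for Dse, Rtl3 for Gm5127, LOC115488016 (overlapping the span) and Hif1a for Prkch, and C9 and Rictor for Fyb. Hif1a, the hypoxia factor gene, averaged 209.9 ± 9.48 CPM in HET CC, 212.8 ± 12.4 in WT CC, 224.4 ± 5.66 in HET CB and 220.9 ± 8.91 in WT CB (SD, n = 4 each). Hif1a lies 123.1 kb from the span of Prkch with its several-fold step, and it was called in none of the 4 comparisons.

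Some genes related by function were called by genotype in CC, in both directions, in lists of 64 measured genes. Over all genes 3.21% were called higher and 3.43% lower in HET CC. Among 12 measured muscarinic receptor and G protein genes, 1 was called in HET CC, with a median log2 of 0.07 over the list. It was Gnaq, a Gq alpha subunit through which the M3 receptor signals (0.18, SE 0.043, edgeR adjusted p = 0.00791). Among 12 chimaerin and Rac genes, Dock8, a guanine exchange factor, was higher in HET CC (0.21, SE 0.065, adjusted p = 0.0412) and Tiam1, a Rac activator, lower (-0.17, SE 0.051, adjusted p = 0.0313). Among 16 genes of chondroitin and dermatan sulfate synthesis, Chst11, a sulfotransferase, was higher in HET CC (0.17, SE 0.047, edgeR adjusted p = 0.0209), the 1 call of that list.

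Of 9 measured members of the protein kinase C list, Prkd3 was higher in HET CC (log2 0.33, SE 0.076, edgeR adjusted p = 0.00791), and Prkcq, the theta isoform central to T cell activation, was lower (-0.29, SE 0.055, adjusted p = 0.00215). Prkd2 was lower as well (-0.27, SE 0.071, edgeR adjusted p = 0.0165), and is named to complete the count. Among 15 adaptors and partners of ADAP, 1 was called lower in HET CC, Apbb1ip, an integrin regulator (-0.15, SE 0.048, edgeR adjusted p = 0.0498). In CB the smallest adjusted p of the 5 lists was 0.0817 by edgeR, at Lcp2, the SLP-76 adaptor (log2 -0.20, SE 0.053), and 9 of the 64 genes had an unadjusted p below 0.05. In WT CC against WT CB these lists moved both ways. Ust, a dermatan sulfate sulfotransferase, rose by 1.62 (edgeR adjusted p = 1.81e-18) and Prkcq by 0.92 (1.3e-17), while Prkca (-0.72, 2.98e-17) and Gnaq (-0.61, 6.3e-16) fell. In HET the same 4 genes had 1.59, 0.77, -0.63 and -0.36.

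By log2 CPM over the 16 libraries, the genes most like the mean of the 6 loci were Slc16a7 (Pearson r = 0.9985), Sntb1 (0.9969), Selp (0.9959), Tent5a (0.9955) and Frmd4b (0.9951) among 6377 candidates. These values describe points that share libraries and depth and that fall into a CC and a CB cluster. The profile they were chosen for holds the lower HET values of the 6 loci, so their genotype values are described without a test. In CC all 5 were lower in HET, from -0.48 (SE 0.088) at Slc16a7, a monocarboxylate transporter gene, to -0.20 (SE 0.058) at Frmd4b. In CB their log2 fold changes of HET over WT were -0.73 at Slc16a7, -0.60 at Sntb1, -0.31 at Selp, -0.29 at Tent5a and -0.28 at Frmd4b. Selp is the P-selectin gene.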

How the data were processed

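Omni-ATAC libraries from 16 samples were analysed from raw counts per peak, deposited by the authors as 1 table of 82188 peaks of 501 bp. Per the submitters' processing notes, FastQC, BWA, deepTools and R 4.2.1 were used on build mm10; peak calling and counting are not given in the sources used here. Of all peaks, 91.0% were assigned to 15055 of 21900 genes of GRCm38.p6 and summed per gene, so a value is accessibility near a gene, not transcription.

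Counts were tested with edgeR 4.0.16 in R 4.3.3 (TMM scaling, filterByExpr, which removed no peak, robust quasi-likelihood fits of all 16 libraries, 1 coefficient per group), checked on simulated data. Benjamini-Hochberg adjustment ran over all peaks or all genes, and an adjusted p below 0.05 is called. Amplified reads are not independent molecules. The members and lists were chosen with earlier results of these data known. A rule named the peaks of each locus: nearest to a gene end, highest mean, widest and smallest CC step in WT, lowest HET value in CB and smallest p in CC; and up to 4 genes per related list, the neighbours and the 5 genes most alike. Alternatives were DESeq2 1.42.0, other scalings and filters, a replicate block, fits of 2 groups, omission of single libraries and, chosen after seeing the data, the Firre level.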

Additional observations from a re-analysis of the deposited data

Results flagged for a closer look

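Among 136 groups of 4 libraries examined for 1 value far from the other 3 (the gap to the nearest value over the whole range above Dixon's 95% critical value for 4 values), 3 stood out, and chance alone gives about 1 group in 20. Prkch, summed over its peaks, was at 176 CPM in WT CC replicate 3, against 150, 150 and 152 CPM in the other WT CC libraries. Chn2 peak_27825 was at 1.93 CPM in WT CB replicate 1, against 1.22 to 1.32 CPM in the other 3. Fyb peak_65666 was at 0.552 CPM in HET CB replicate 3, against 0.461 to 0.467 CPM in the other 3. The causes were not tested.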

How the results depend on the processing

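The balance of genotype calls in CC was not stable, with 889 peaks higher and 805 lower in HET in the main fit and 2154 and 2496 by DESeq2. At Chn2 the log2 fold change in CC was -0.16 in the main fit and 0.04 without the low-Firre libraries. Counts of all peaks or genes called between CC and CB stayed within 1.5 times the reported ones in both genotypes. The genotype counts did not. In CC, 1694 peaks, 5 of them in the 6 loci, and 1000 genes were called by edgeR. DESeq2 called 4650 peaks (10 in the loci) and 1656 genes there, a fit of the 2 CC groups alone 186 peaks (2) and 271 genes, a Firre term 606 peaks (2) and 421 genes, and edgeR without the 6 low-Firre libraries 0 peaks (0 in the loci; 7425 of all peaks at an unadjusted p below 0.05) and 2 genes, with 0 of the 6 loci. Library totals gave 3 peaks in the loci. In CB, 106 peaks and 84 genes were called. DESeq2 called 647 peaks and 261 genes there, the 2 CB groups alone 1076 peaks and 491 genes, edgeR without the low-Firre libraries 152 genes, and peaks inside gene spans 47 genes. Leaving out 1 library at a time gave 338 to 2991 peaks, 1 to 9 of them in the loci, and 332 to 1435 genes in CC, with 2 to 4 of the 6 loci, and 20 to 51 peaks and 32 to 63 genes in CB. The causes were not tested.

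With a replicate block, 3 peaks of the loci were called in CC and 45 of all peaks in CB, and Chrm3 and Dse kept their calls in CC. The numbers do not pair HET with WT libraries: same-numbered deviations correlated at -0.242 to -0.167 between HET CB and WT CB and at -0.048 to 0.014 between HET CC and WT CC. In WT each of the 4 CC libraries correlated best with the CB library of its own number (0.07 to 0.115). In HET the same-numbered values were 0.041 to 0.078, the best match for replicates 1 and 4 but not for 2 and 3. With 2 to 156 counts per peak and CC library, differences at the weaker peaks may not be detectable at this depth.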
